A study of Mus musculus with 2 samples.

Results

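Promoters of long intergenic non-coding RNAs (lincRNAs) were taken from open chromatin of newborn mouse thymus, and 1226 such peaks were found among 101719 autosomal peaks present in both replicates. A member is a DNase I peak called in replicate 1 with an overlapping call in replicate 2. Its midpoint is at most 1000 bp from a lincRNA transcription start site (TSS), and it lies over 5000 bp from every protein-coding TSS. Peak scores played no part in the choice. The thymus was of strain B6NCrl mice at postnatal day 0, with males and females pooled. The series held 1 group of 2 biological replicates, which the labels tie to the same donor and to different biosamples, so the spread over n = 2 may be partly technical. Members were set beside 24525 coding promoter peaks, which lie within 1000 bp of a coding TSS, and beside 61093 other peaks over 5000 bp from coding TSSs, here called other far peaks. There was no second condition, and peaks of one library are not replicates. Differences between peak classes were not tested and are given for each replicate.

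Long intergenic non-coding RNAs are transcripts that lie between protein-coding genes and encode no known protein. Their start sites, like those of coding genes, are bound by transcription factors and RNA polymerase II, and the nucleosomes there are displaced, which exposes the DNA to DNase I. Mammalian promoters fall broadly into those in CpG islands, bound by factors of the SP, ETS and NFY families, and those with few CpG dinucleotides, many of which are active in few cell types. In the thymus, where T cells mature, RUNX, ETS, TCF/LEF and E-box-binding factors are among the main regulators of lymphoid chromatin. A start site of an annotated lincRNA can also lie in an enhancer, and an accessible peak alone does not separate a promoter from an enhancer.

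The following 4 sequences show the CpG-rich promoters among the members, each being the 150 bp of the strongest member peak of the gene on the + strand of GRCm38, written 5′ to 3′. They are the strongest member of all, 1700096K18Rik at chr5:25529676-25529825, the nuclear RNA genes Malat1 at chr19:5803556-5803705 and Neat1 at chr19:5845856-5846005, and Gm26692 at chr5:107687996-107688145 beside Gfi1. Capitals mark matches to any of 15 motifs on either strand, and matches of different motifs may overlap.
1700096K18Rik: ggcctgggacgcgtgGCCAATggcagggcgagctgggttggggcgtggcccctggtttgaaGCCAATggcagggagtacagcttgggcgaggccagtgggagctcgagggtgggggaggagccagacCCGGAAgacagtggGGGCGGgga
Malat1: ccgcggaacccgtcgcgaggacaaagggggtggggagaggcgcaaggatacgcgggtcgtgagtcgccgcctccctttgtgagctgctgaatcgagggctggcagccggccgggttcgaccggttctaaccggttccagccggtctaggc
Neat1: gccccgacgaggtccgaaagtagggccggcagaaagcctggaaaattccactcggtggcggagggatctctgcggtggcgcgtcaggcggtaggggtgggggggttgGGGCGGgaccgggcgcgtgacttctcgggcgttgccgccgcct
Gm26692: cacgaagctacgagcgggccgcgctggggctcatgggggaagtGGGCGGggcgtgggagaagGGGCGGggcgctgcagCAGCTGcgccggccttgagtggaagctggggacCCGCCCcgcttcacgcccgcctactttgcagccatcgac

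Malat1 had 18 CpG dinucleotides in these 150 bp and no motif match, and Neat1 also had 18, with 1 SP/KLF match. The midpoint of this Malat1 peak lay 959 bp upstream of the nearest TSS. The 1700096K18Rik peak held 2 NFY matches, 1 ETS match of the promoter type and 1 SP/KLF match. The Gm26692 peak held 3 SP/KLF matches and 1 E-box.

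The next 5 sequences show CpG-poor members, again as the strongest member peak of each gene on the + strand of GRCm38 with motif matches in capitals. Mir142hg at chr11:87754696-87754845 hosts the blood cell microRNA miR-142, and the others are members beside T cell genes. They are Gm28556 at chr1:138191716-138191865 beside Ptprc, 2010110G14Rik at chr3:130937076-130937225 beside Lef1, Gm27162 at chr9:32928756-32928905 beside Ets1 and Gm44175 at chr6:71360836-71360985 beside Cd8a.
Mir142hg: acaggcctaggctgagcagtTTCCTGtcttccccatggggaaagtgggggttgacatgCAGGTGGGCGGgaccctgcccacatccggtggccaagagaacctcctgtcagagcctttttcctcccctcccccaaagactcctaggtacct
Gm28556: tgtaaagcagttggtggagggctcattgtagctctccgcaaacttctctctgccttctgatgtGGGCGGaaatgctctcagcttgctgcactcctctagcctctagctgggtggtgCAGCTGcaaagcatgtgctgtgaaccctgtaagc
2010110G14Rik: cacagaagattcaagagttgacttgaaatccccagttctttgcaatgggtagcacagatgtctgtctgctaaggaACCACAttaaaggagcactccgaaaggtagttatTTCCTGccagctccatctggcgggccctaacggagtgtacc
Gm27162: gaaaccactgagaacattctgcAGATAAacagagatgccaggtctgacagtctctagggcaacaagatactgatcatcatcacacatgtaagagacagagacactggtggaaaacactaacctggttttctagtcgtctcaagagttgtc
Gm44175: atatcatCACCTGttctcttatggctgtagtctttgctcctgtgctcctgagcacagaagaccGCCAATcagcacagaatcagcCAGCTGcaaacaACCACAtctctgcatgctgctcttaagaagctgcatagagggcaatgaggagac

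These 5 peaks had 1 to 3 CpG dinucleotides. The 2010110G14Rik peak held a RUNX match and an ETS match of the lymphoid type, and the Gm44175 peak held RUNX, NFY and both E-box forms. In the Mir142hg peak an E-box and an SP/KLF match overlapped.

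The deposited peak lists held 154812 peaks in replicate 1 and 139702 in replicate 2. Each peak is 150 bp wide and carries the authors' score, a number from 1 to 150 whose meaning no source here states. All scores are whole, although some are written with a decimal point, among them those of 71 members in replicate 1. Scores were used to rank peaks within a list, as a percentile rank among the autosomal peaks of the same replicate. No read totals were at hand, so depth is unknown. All 7 T cell marker genes had a shared promoter peak, among them Cd3e, Cd4, Cd8a, Rag1 and Ptcra. So did Pax5 of 3 B cell markers, both myeloid markers, Epcam of 3 epithelial markers, Pecam1 of 2 endothelial markers and both mesenchymal markers. Over all protein-coding genes 63.2% had one, so these counts do not by themselves show which other cells the tissue held. The part of other cells in the lincRNA peaks was not tested. In a bulk sample fewer open cells and less opening per cell cannot be told apart.

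The member peaks belonged to 852 of 5209 autosomal lincRNA genes. Of these genes 572 had 1 member peak, 196 had 2 and 84 had 3 or more, and 737 carry a systematic name beginning with Gm or ending in Rik. Most of the genes therefore have no established name. Among the 4587 lincRNA genes with a TSS over 5000 bp from coding TSSs, 22.0% had a promoter peak in replicate 1 and 20.6% in replicate 2, a mean of 21.3% ± 0.987 (SD, n = 2). Protein-coding genes had one in 65.9% ± 0.437 (SD, n = 2) of 20722 cases within the same window. Shared peaks marked 18.5% of these lincRNA genes and 63.2% of coding genes. The gap between lincRNA and coding genes was many times the spread between replicates. That spread does not cover the number of annotated start sites, at each of which a peak could count. There were 54361 coding TSSs at all 21853 coding genes, against 7173 start sites at the 5209 autosomal lincRNA genes. The part of this in the gap was not tested.

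The share of lincRNA genes with an open start site varied with how well the annotation is supported. The annotation grades transcripts by support level, where 1 is the best. A shared peak was present at 21.7% of 1651 genes whose best transcript had level 1 and at 24.5% of 273 genes with level 2. It was present at 18.4% of 594 genes with level 3, 12.4% of 876 genes with level 5 and 17.1% of 1193 genes with no level. Genes with several start sites also had more chances of a peak, with 16.2% of 3608 genes with 1 start site, 24.4% of 618 with 2 and 31.3% of 361 with 3 or more. The number of start sites and the support level were not separated.

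Among chromosomes, 17 stood highest, with a shared peak at 64 of 202 lincRNA genes (31.7%) and 110 member peaks. The other autosomes ranged between 12.5% on chromosome 8 and 25.8% on chromosome 11. Of the 110 peaks on chromosome 17, 11 had a central sequence that recurs in the genome, which is described below for all members, and the part of that in the count was not tested.

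Replicate 1 alone had 1736 lincRNA promoter peaks, of which 70.6% overlapped a replicate 2 peak, against 67.4% of all its autosomal peaks. Replicate 2 had 1591, of which 77.4% overlapped a replicate 1 peak, against 74.8% of all. In each replicate the share at lincRNA start sites was thus slightly above that of all peaks. Peaks found in 1 replicate were weak, with a median score of 30 for the 510 of replicate 1 and 25 for the 360 of replicate 2. Shared ones had medians of 65 and 58 in the same lists. Of the unshared peaks, 39.8% in replicate 1 and 15.6% in replicate 2 still lay in a hotspot, a wider enriched region, of the other replicate.

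Scores of the members agreed closely between replicates, as the scatter of scores by replicate shows. Spearman's rho over the 1226 members was 0.922, and over all shared autosomal peaks it was 0.910. This is a description across peaks of the same tissue, and peaks are not independent samples. Some members are not separate sites, since 79 overlapped another member and the 1226 peaks matched 1183 different replicate 2 peaks.

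**Figure D1:**
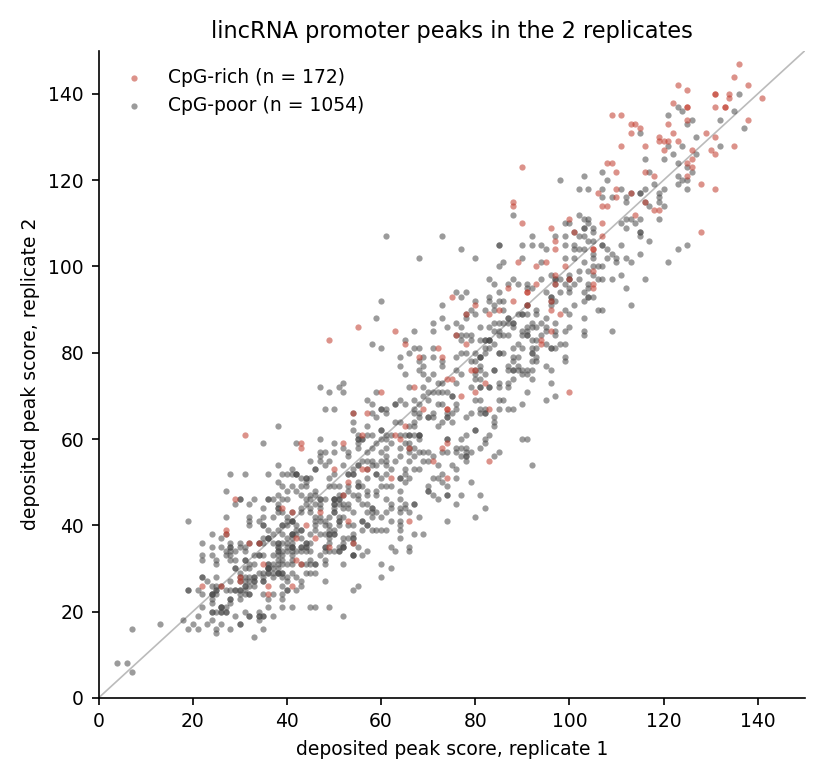
Deposited score of each lincRNA promoter peak in replicate 1 (horizontal) and replicate 2 (vertical), 1 point per peak, with the line of equal scores. CpG-rich peaks (red, n = 172) lie mostly at high scores and CpG-poor peaks (grey, n = 1054) spread over the whole range.

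A few members differed in rank between replicates. AC163629.2, whose nearest coding gene is the kinase gene Pim1 at 31.4 kb, had scores of 52 in replicate 1 and 19 in replicate 2. The remaining 4 of the 5 largest rank differences were higher in replicate 2, with scores in replicates 1 and 2 of 19 and 41 at 9430037G07Rik, 31 and 61 at A430073D23Rik, 28 and 52 at Gm26734, and 27 and 48 at Gm32856. The central 32 bases of the peaks at 9430037G07Rik and A430073D23Rik occurred 4 and 2 times in the genome sequence.

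lincRNA promoter peaks were stronger than other far peaks and weaker than coding promoter peaks. Their median score was 65 in replicate 1 and 59 in replicate 2. Coding promoter peaks had medians of 83 and 85, and other far peaks 56 and 47. On the percentile scale the median rank was 68.3 and 67.5 for lincRNA promoters, 80.9 and 83.3 for coding promoters and 60.4 and 56.8 for other far peaks. The difference in median rank between lincRNA promoters and other far peaks was 7.96 in replicate 1 and 10.7 in replicate 2, a mean of 9.33 ± 1.94 (SD, n = 2). The distributions overlapped widely, since the middle 50% of members scored 43 to 90 in replicate 1 and the middle 50% of other far peaks 40 to 78.

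**Figure D2:**
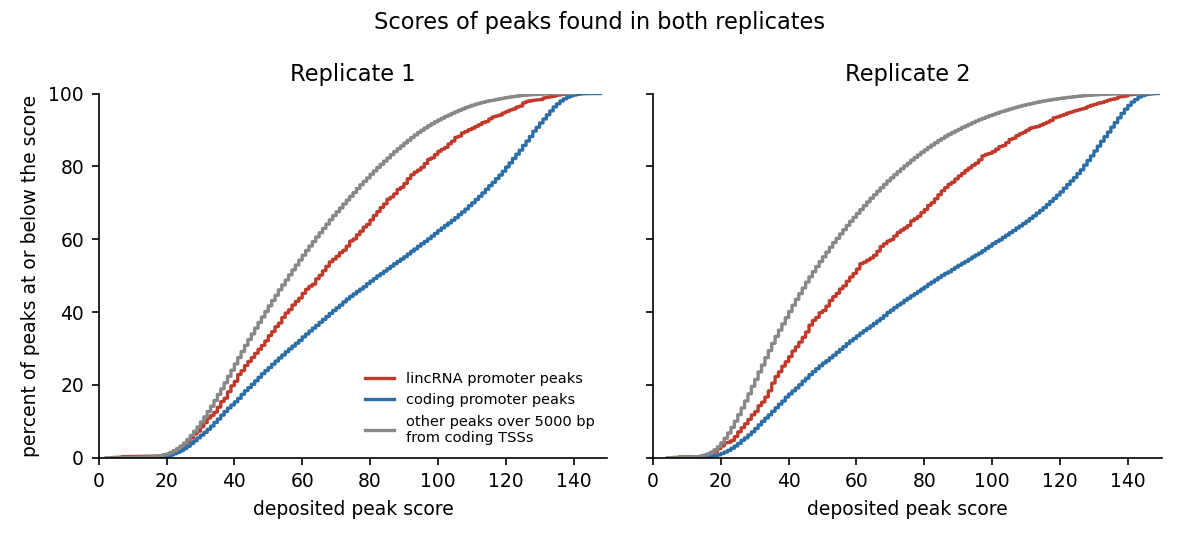
Cumulative percent of peaks (vertical) at or below each deposited score (horizontal) in replicate 1 and replicate 2, for lincRNA promoter peaks (red, n = 1226), coding promoter peaks (blue, n = 24525) and other peaks over 5000 bp from coding TSSs (grey, n = 61093). The lincRNA curve lies between the other curves over most of the range in both replicates.

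The hotspots around lincRNA promoters were also of middle width. Their median width was 366.5 bp in replicate 1 and 496 bp in replicate 2. Around coding promoter peaks it was 832 and 1225 bp, and around other far peaks 297 and 323 bp. At 70.2% of members in replicate 1 and 71.9% of them in replicate 2 the hotspot had the highest −log10 q-value that the deposited lists allow, so that value does not rank them.

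Most of the lincRNA promoter peaks chosen by the rule were poor in CpG. The median count was 3 CpG dinucleotides per 150 bp peak, against 10 in coding promoter peaks and 2 in other far peaks. A peak was called CpG-rich where the 300 bp around its midpoint had a GC content of at least 50% and an observed over expected CpG ratio of at least 0.6. By that rule 172 of the 1226 lincRNA promoter peaks were CpG-rich, or 14.0%, against 59.2% of coding promoter peaks, 2.67% of other far peaks and 17.3% of all shared autosomal peaks. The members' share was thus under that of all peaks, which include the coding promoters, and above that of other far peaks. In the replicates' own lists the share was 12.4% ± 0.0833 (SD, n = 2) for lincRNA promoters, 52.1% ± 0.553 for coding promoters and 2.33% ± 0.142 for other far peaks.

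CpG content went with strength among lincRNA promoters. The 172 CpG-rich members had median scores of 93.5 and 95 in replicates 1 and 2, and the 1054 CpG-poor members 61 and 55. Median hotspot widths were 830 and 1048.5 bp around CpG-rich members and 339.5 and 452 bp around CpG-poor ones. The CpG-rich members were weaker than CpG-rich coding promoter peaks, with median ranks of 86.7 and 87.2 against 91.4 and 92.4, and stronger than CpG-rich other far peaks, at 76.4 and 77.7. Among CpG-poor peaks the order of lincRNA and coding promoters was the other way round, with median ranks of 65 and 64.2 for lincRNA promoters, 61.3 and 63.4 for coding promoters and 60.4 and 55.7 for other far peaks, and the gap to coding promoters was small in replicate 2. The lower rank of lincRNA than of coding promoter peaks therefore did not hold within the CpG-poor class. The order of hotspot widths did hold there, with medians of 448 and 813 bp around CpG-poor coding promoter peaks, against 339.5 and 452 bp. The classes also differed in position. CpG-poor coding promoter peaks lay at a median of 0.455 kb from a coding TSS, and CpG-rich ones at 0.078 kb. CpG-poor members lay at a median of 332 bp from a lincRNA TSS, and CpG-rich ones at 142.5 bp. The part of position in these orders was not tested. Over single members the relation was loose, with Spearman's rho of score and CpG count at 0.280 in replicate 1 and 0.316 in replicate 2 (n = 1226 peaks, as a description).

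Members clustered at the annotated start site. The median distance of the midpoint from the nearest lincRNA TSS was 309 bp, and 675 members (55.1%) lay upstream of it. The 270 members within 75 bp of the TSS were the strongest, with median scores of 77.5 and 72 in replicates 1 and 2, and 22.2% of them were CpG-rich. Between 76 and 250 bp there were 276 members with medians of 66.5 and 61, between 251 and 500 bp 276 with 57 and 52, and between 501 and 1000 bp 404 with 61 and 55. In these outer groups 15.6%, 13.0% and 8.17% were CpG-rich.

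**Figure D3:**
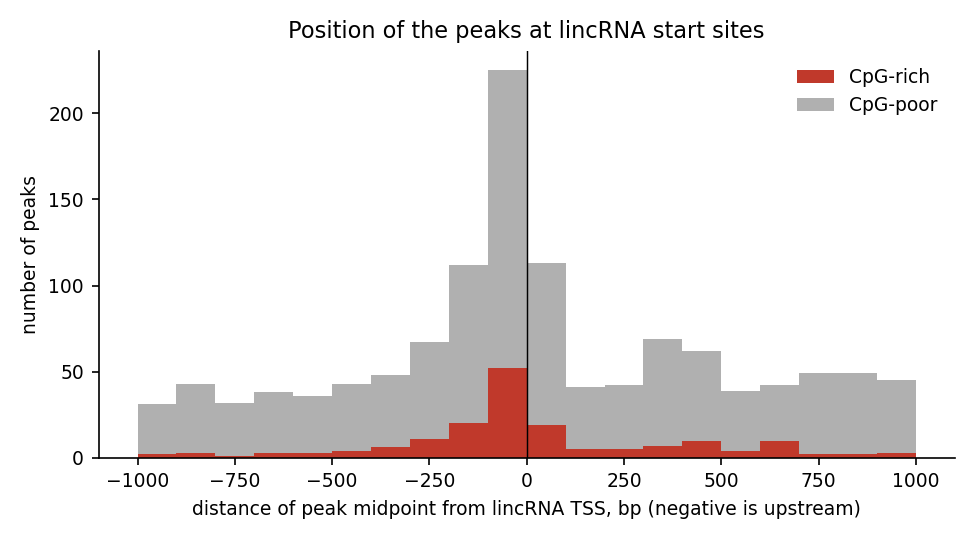
Number of lincRNA promoter peaks (vertical) by distance of the peak midpoint from the nearest lincRNA TSS in bp (horizontal, negative is upstream, bins of 100 bp), stacked as CpG-rich (red, n = 172) and CpG-poor (grey, n = 1054). The highest bin is the one just upstream of the TSS, in both classes.

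By midpoint, 285 members lay in a lincRNA exon, 404 in a lincRNA intron and 537 outside lincRNA gene bodies. The label intergenic did not hold for all of them, since 63 lay inside the body of a protein-coding gene. The nearest coding TSS was at a median of 42.8 kb, 279 members were over 100 kb from any, and the farthest was at 785 kb. In all, 28 members were within 5000 bp of the TSS of a non-coding transcript of a coding gene.

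The distance limits cut through several genes. Shared peaks within 1000 bp of a lincRNA TSS numbered 1901, and 675 of them were left out for a coding TSS within 5000 bp, 507 of these within 1000 bp. Just inside the coding limit lay peaks of Gm37552, 5042 bp from a TSS of Gpr25 with scores of 84 and 85, and of 2310075C17Rik, 5150 bp from Arpp21 with scores of 75 and 66. Just outside it lay a peak of Mir142hg, 26 bp from its TSS and 4990 bp from a TSS of Tspoap1, with scores of 141 and 139 in replicates 1 and 2. At the lincRNA limit, a peak 1000 bp from the TSS of Gm33914 scored 115 and 111, and one 1002 bp from Gm36445 was outside with 127 and 131.

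The strongest lincRNA promoters had scores near the highest in the lists. The 20 strongest members by mean rank belonged to 18 genes, scored 123 to 141 in replicate 1 and 132 to 147 in replicate 2, and 16 of them were CpG-rich. Their CpG count had a median of 14.5 per 150 bp, 15 of the 20 had an SP/KLF match and 8 an NFY match. Over all members SP/KLF was in 16.3% and NFY in 7.01%, and over CpG-rich members in 51.2% and 12.2%. First of the 20 was 1700096K18Rik, 262 bp upstream of its TSS and 13.7 kb from Cct8l1, with scores of 136 and 147. Gm11527, 15.2 kb from Gngt2, scored 138 and 142, D730045B01Rik, 59.6 kb from Gm42906, 135 and 144, and 1810019N24Rik, 16.2 kb from Zfp324, 141 and 139.

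Others of the 20 lay beside coding genes with known roles. 4932412D23Rik had 2 of the peaks, both about 32 kb from Zbtb20, a zinc finger repressor gene, with scores of 136 and 140 and of 131 and 140. Gm2885 was 45.2 kb from Ezr, which encodes the membrane linker ezrin, and scored 134 and 140. Gm33195 was 79.9 kb from Cd83, a surface molecule of activated immune cells, and scored 131 and 140. Gm20109, 5.69 kb from Fkbp5, scored 138 and 134, and Gm27017, 41.4 kb from Kcnrg, 125 and 137. The exceptions to CpG richness among the 20 included A630091E08Rik, 49.9 kb from Emsy, with 3 CpG dinucleotides and scores of 137 and 132, and 4930580E04Rik, 47.3 kb from Kmt2e, with 4 and scores of 132 and 134.

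The weakest members came from few places. The 5 lowest scored 4 to 13 in replicate 1 and 6 to 17 in replicate 2, and belonged to 2410018L13Rik, Gm30124 (2 peaks) and Gm4425 on chromosome 12 and 1700110I01Rik on chromosome 14. One of the Gm30124 peaks had central bases that occur 27 times in the genome sequence. Their percentile ranks were at most 1.35 in replicate 1 and 6.63 in replicate 2.

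Of 33 genes with established names on the lists that are annotated as autosomal lincRNAs, 22 had a member peak, against 16.4% of all autosomal lincRNA genes. By list these were 3 of 4 nuclear RNAs, 8 of 11 hosts of small RNAs, 2 of 3 imprinted genes, 8 of 9 immune and growth genes and 1 of 6 developmental genes. The count of developmental genes is near that background share, though it rests on 6 genes. Some listed genes have many annotated start sites, such as Lncpint with 14 and Pvt1 with 10. As given above, the share of genes with a peak rose with the number of start sites. The part of this in the counts of listed genes was not tested. Names not in the annotation were looked up among RefSeq synonyms, which matched 6 more of the listed names, 3 of them with a member peak. Many others on the lists carry another gene type in this annotation and were outside the rule.

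Malat1, an abundant RNA of nuclear speckles, had 4 member peaks, of which the strongest scored 133 and 137 in replicates 1 and 2. That peak lay 959 bp upstream of the nearest TSS, close to the limit of 1000 bp. A second peak directly on an annotated TSS scored 124 and 128. Neat1, the scaffold RNA of paraspeckles, had 3 member peaks, the strongest at 131 and 126. Both genes lie on chromosome 19 and were among the most open lincRNA promoters. 2900097C17Rik, the mouse counterpart of NORAD, had peaks of 83 and 89 and of 78 and 89, which overlap each other. Miat had no replicate 1 peak within 1000 bp of a TSS.

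Hosts of small nucleolar RNAs, which guide the modification of ribosomal RNA, had strong promoters. Snhg6 scored 130 and 127 at its main peak, Snhg12 131 and 118 and Snhg20 116 and 115. All these peaks were within 33 bp of a TSS. Snhg10 and Snhg18 were left out because of a coding TSS within 5000 bp.

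The microRNA hosts on the list varied in strength. Mir142hg scored 121 and 135 at its member peak, 806 bp upstream of the TSS. Mir17hg, which hosts a cluster of microRNAs that promote lymphocyte growth, had its strongest peak 628 bp upstream of the TSS at 105 and 104, and a weak one near the TSS at 33 and 31. Mir155hg, induced in activated lymphocytes, had a CpG-rich peak with 24 CpG dinucleotides at 93 and 100. Mir670hg scored 125 and 105. Mir9-3hg, host of a microRNA of the nervous system, scored 34 and 36 at its member peak, the lowest main peak of the 22 listed genes, and the Mir124a-1hg peak was not shared.

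The imprinted growth regulators H19 and Meg3, both expressed from the maternal allele, had 1 member peak each. H19 scored 64 and 60 and lay 88 bp upstream of its TSS, and Meg3 scored 87 and 73. Mirg had no replicate 1 peak at a TSS.

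Genes of immunity and growth control varied in strength. Mirt1 scored 118 and 119 and had 1 CpG dinucleotide, and Lockd, 8.30 kb from the cell cycle inhibitor gene Cdkn1b, scored 110 and 116 with 14. Pvt1, the neighbour of Myc, had 3 member peaks of which the one in an intron, 264 bp from a start site, scored 58 and 54, and the one 35 bp from a start site nearer to Myc scored 43 and 59. Ptgs2os2 beside the cyclooxygenase gene Ptgs2 scored 66 and 61 at most. Ifngas1, 115.6 kb from the interferon gamma gene Ifng, had a peak of 59 and 39. Trp53cor1, also called lincRNA-p21 and 12.3 kb from Cdkn1a at its strongest peak, had 4 weak peaks, the strongest at 47 and 38. Morrbid, annotated as Gm14005 and known as a regulator of myeloid cell survival, had 4 member peaks, the strongest at 99 and 79, and one 2 bp from a TSS scored 81 and 66. Within this list strength thus differed widely.

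Of the developmental list Oip5os1, also called Cyrano and annotated as 1700020I14Rik, had 3 member peaks. The strongest lay 26 bp upstream of its TSS, had 13 CpG dinucleotides and scored 125 and 134, and the other two scored at most 33 and 28. No member peak was found at Hotair, Hottip, Rmst, Pantr1 or Lncenc1. Each of these had no replicate 1 peak within 1000 bp of a TSS. Hotair and Hottip lie in the Hox gene clusters, and Rmst and Pantr1 are known from the nervous system.

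**Figure D4:**
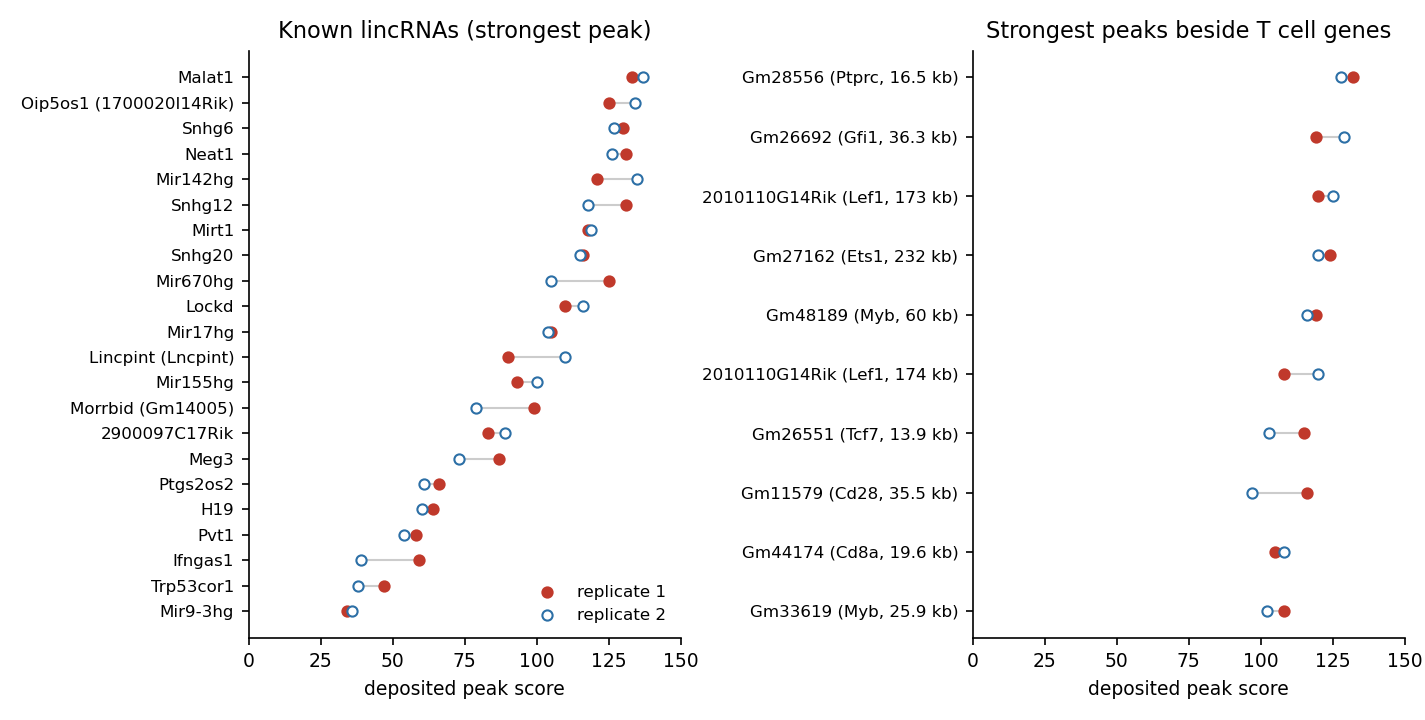
Deposited score (horizontal) in replicate 1 (filled red) and replicate 2 (open blue) for the strongest member peak of each of the 22 listed lincRNAs with a member peak (left, with the annotated name where it differs) and for the 10 strongest members whose nearest coding gene is a T cell gene (right, with that gene and its distance). The left panel runs down to scores of 34 and 36 at Mir9-3hg. The right panel holds only strong peaks by choice, and all 46 members beside T cell genes scored 23 to 132 in replicate 1 and 19 to 129 in replicate 2.

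Some lincRNA promoters stood beside genes of T cell development. The list of such genes had 74 members, and 20 of them were the nearest coding gene of a lincRNA promoter peak. These were 46 members at 30 lincRNA genes, or 3.75% of members, against 2.35% of other far peaks and 1.93% of all shared autosomal peaks. Nearness to a coding gene says nothing of which gene a promoter serves. The 46 members had median ranks of 79.7 and 80.6 in replicates 1 and 2, and the other members 68.3 and 66.7. Other far peaks beside the same gene list, 1433 of them, had 62.2 and 61.6. Of the 46 only 2 were CpG-rich, and their median CpG count was 2. An E-box of the palindromic form was in 12 of them (26.1%), against 13.9% of all members, and a TCF/LEF match in 10 (21.7%), against 12.0%. AP-1, not among the lymphoid motifs named above, was likewise more frequent, in 6 (13.0%), against 6.20%. Less frequent were SP/KLF, in 4 (8.70%), against 16.3%, and ETS of the promoter type, in 0, against 8.65%. The lymphoid ETS type was in 13 (28.3%), against 29.0%, the second E-box form in 9 (19.6%), against 20.3%, and RUNX in 7 (15.2%), against 13.7%, so these stood near the share of all members. Among CpG-poor members the palindromic E-box was in 15.4%, TCF/LEF in 13.1%, AP-1 in 6.36%, SP/KLF in 10.6% and promoter-type ETS in 6.74%. The counts among the 46 are small, and some matches come from several peaks of 1 gene, such as Gm44174 for the E-box and Gm13293 for TCF/LEF.

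The strongest of these was Gm28556, 16.5 kb from Ptprc, which encodes the phosphatase CD45 of all leukocytes, with scores of 132 and 128. Gm26692, 36.3 kb from the repressor gene Gfi1, scored 119 and 129 and was CpG-rich, with 16 CpG dinucleotides. 2010110G14Rik lay 173 kb from Lef1, a TCF/LEF factor of thymocytes, and had peaks of 120 and 125 and of 108 and 120. Both peaks were in an intron of the lincRNA and high in both replicates.

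Gm27162 was 232 kb from Ets1, a founding member of the ETS factors, and its 3 member peaks scored 78 to 124 in replicate 1 and 84 to 120 in replicate 2. Myb, a factor of blood progenitors and early thymocytes, had 3 lincRNA genes beside it, with Gm48189 at 60.0 kb scoring 119 and 116 and Gm33619 at 25.9 kb scoring 108 and 102. Gm26551 lies inside Tcf7, which encodes the T cell factor TCF1, and scored 115 and 103 at 13.9 kb from the nearest coding TSS. Gm11579, 35.5 kb from the costimulatory receptor gene Cd28, had its peak 3 bp from the TSS and scored 116 in replicate 1 and 97 in replicate 2.

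The co-receptor gene Cd8a had 5 member peaks at 2 lincRNA genes, Gm44174 and Gm44175, between 12.5 and 20.96 kb away. The strongest scored 105 and 108 at Gm44174 and 97 and 97 at Gm44175, and the others between 53 and 65. Cd8b1 had a further lincRNA peak at 16.8 kb, with scores of 82 and 83. Bcl11b, required for commitment to the T lineage, had Gm15208 at 219 kb, 10 bp from its TSS, with scores of 99 and 102. Satb1, which organises thymocyte chromatin, had 4 member peaks at 2 lincRNA genes, up to 84 and 96, and the Notch target Hes1 had 4 at 3 genes, up to 100 and 95. Gm32255 beside Egr2, a factor induced by T cell receptor signals, had a weak peak of 23 and 27.

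At the 84 genes with 3 or more member peaks, the peaks of a gene spanned a median of 1.23 kb, and at 13 genes more than 2 kb. Lncpint, a lincRNA induced by p53 that has 14 annotated start sites and stands on the immune and growth list as Lincpint, had 7 member peaks over 4.43 kb, scoring 32 to 90 in replicate 1 and 27 to 110 in replicate 2. BC028471 had 7 over 8.59 kb with 6 start sites, up to 127 and 130. 2310001H17Rik, 36.9 kb from the early activation gene Cd69, had 6 over 5.61 kb, up to 119 and 111. C920006O11Rik, with 1 start site, had 5 within 1.47 kb, up to 115 and 132.

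AU020206, and CR974462.6 at 15.1 kb from the class I gene H2-K1, had 7 member peaks each, within 1.57 and 1.71 kb. At AU020206 the strongest scored 121 and 129, and at CR974462.6 117 and 122. Parts of both recur in the genome, with the central 32 bases of a peak occurring 455 and 191 times at 2 AU020206 peaks and 94 times at a CR974462.6 peak. Over all members 60 peaks (4.89%) had central 32 bases that occur more than once, against 1.88% of coding promoter peaks and 3.27% of other far peaks. Of these 60, 35 belonged to genes with 3 or more member peaks, which held 295 of all 1226 members. Reads from such sequence cannot be placed with certainty unless they extend beyond it, and their treatment is not stated in the labels or files. None of the 20 strongest members had recurring central bases.

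Motif content of lincRNA promoters lay between that of coding promoters and of other far peaks for all motifs but AP-1 and the TATA box, which were slightly more frequent in lincRNA promoters than in either. Each 150 bp was searched for short core letters of 15 factor families. For the ETS family the form common at promoters was spelled CCGGAA and the form common at lymphoid enhancers was spelled CAGGAA in the search. The core used for RUNX factors was TGTGGT, and the core used for TCF and LEF factors was CTTTGA in these peaks. The E-box was searched in its palindromic form CAGCTG and separately in a second form, with the letters CACCTG in place of it. The GATA family was represented by AGATAA, the AP-1 dimers were represented by TGANTCA, and the cyclic AMP response element CRE was represented by TGACGTCA as the whole palindrome. Of the promoter factors, NFY was searched with GCCAAT, while NRF1 was searched with CGCATGCG, and the SP and KLF families were searched with GGGCGG as their shared box. The YY1 core was given as ATGGCG and the TATA box was given as TATAAA, and CTCF was searched by its long consensus. Both strands were searched. A match is a description of the letters and not a bound site.

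Motifs of CpG-rich promoters were more frequent than in other far peaks. SP/KLF matches were in 16.3% of lincRNA promoter peaks, 41.3% of coding promoter peaks, 6.83% of other far peaks and 15.7% of all shared peaks. ETS matches of the promoter type were in 8.65% of lincRNA promoters, 15.0% of coding promoters, 4.0% of other far peaks and 6.86% of all. NFY matches were in 7.01%, against 9.98%, 4.34% and 5.74% in the same order. For YY1 the shares were 3.59%, against 7.39%, 3.12% and 4.17%, and NRF1 was found in 5 members, or 0.408%, against 1.78%, 0.193% and 0.578%. CRE matches were in 1.06%, against 1.88%, 0.388% and 0.770%.

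RUNX matches were fewer than in other far peaks. They were in 13.7% of lincRNA promoters, 7.68% of coding promoters, 21.9% of other far peaks and 17.9% of all shared peaks. In the replicates' own lists the share was 14.0% ± 0.0984 for lincRNA promoters, 7.92% ± 0.0348 for coding promoters and 20.4% ± 0.0863 for other far peaks (SD, n = 2 each), so the gaps were many times the spread between replicates. The lists of the replicates share most of their peaks, which keeps that spread small. CTCF, the factor of chromatin loop anchors, had a match in 4.0% of lincRNA promoters, 0.852% of coding promoters, 6.26% of other far peaks and 4.64% of all.

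Other lymphoid motifs were near the level of other far peaks. The lymphoid ETS form was in 29.0% of lincRNA promoters, 16.1% of coding promoters, 29.9% of other far peaks and 25.9% of all. The second E-box form was in 20.3%, against 12.5%, 22.3% and 19.7% in the same order. For the palindromic E-box the shares were 13.9%, against 10.1%, 16.6% and 14.7%, and for TCF/LEF 12.0%, against 6.65%, 13.9% and 11.8%. GATA matches were in 5.14%, against 2.67%, 6.37% and 5.37%. AP-1 was in 6.20%, against 2.65%, 5.6% and 4.84%, and the TATA box in 5.46%, against 2.80%, 5.13% and 4.49%.

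Splitting the peaks by CpG content brought the shares of lincRNA and coding promoters closer for SP/KLF, promoter-type ETS, RUNX, lymphoid ETS and CTCF, by differing amounts. Among CpG-rich peaks, SP/KLF was in 51.2% of lincRNA promoters, 58.1% of coding promoters and 39.0% of other far peaks, and promoter-type ETS in 20.3%, 19.7% and 10.8%. Among CpG-poor peaks, RUNX was in 15.3% of lincRNA promoters, 13.2% of coding promoters and 22.3% of other far peaks. For the lymphoid ETS form a gap remained, with 31.5% of CpG-poor lincRNA promoters, 22.8% of CpG-poor coding promoters and 30.3% of CpG-poor other far peaks. CTCF matches were in 4.27% of CpG-poor lincRNA promoters, 1.49% of coding ones and 6.33% of other far ones. AP-1 was in 9 of the 172 CpG-rich lincRNA promoters, or 5.23%, against 1.47% of CpG-rich coding promoters and 2.39% of other far peaks, a small count.

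**Figure D5:**
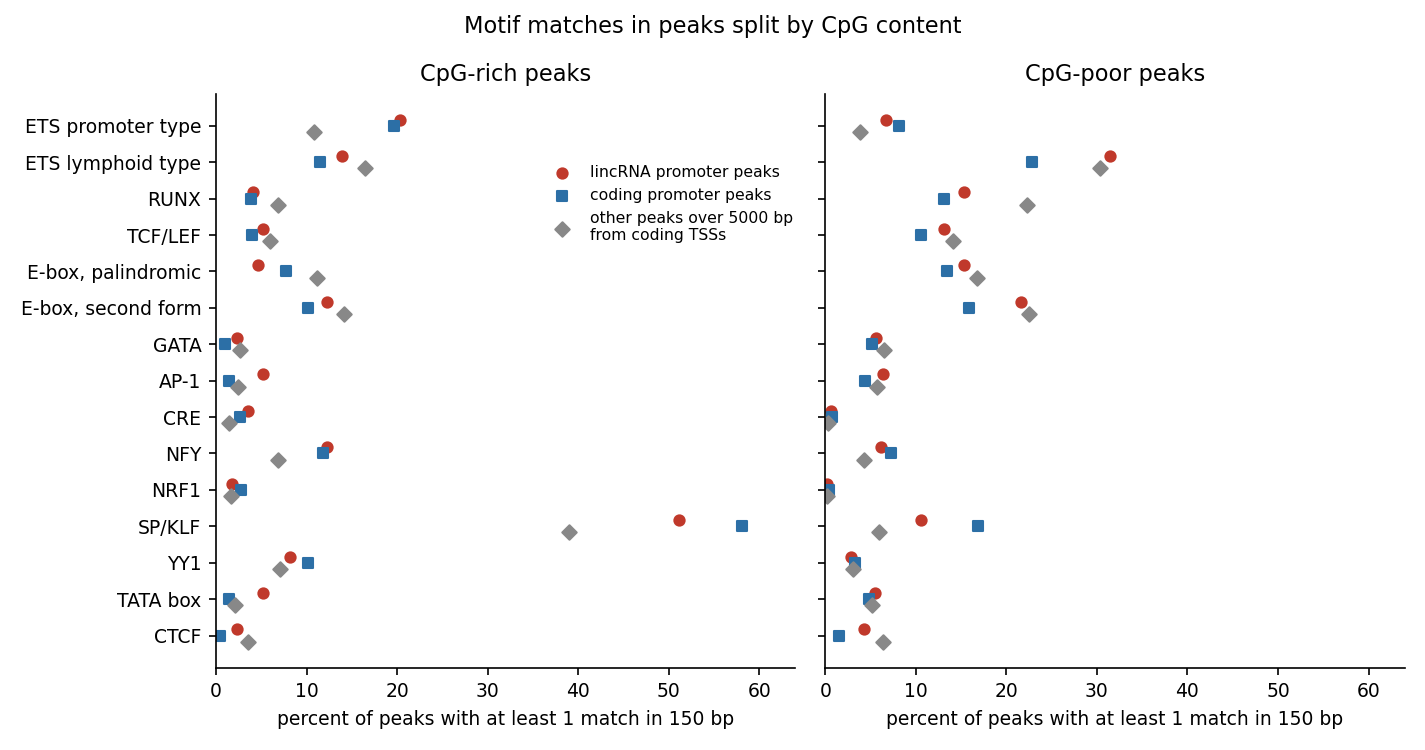
Percent of peaks with at least 1 motif match in 150 bp (horizontal) for 15 motifs (vertical), in CpG-rich peaks (left) and CpG-poor peaks (right), for lincRNA promoter peaks (red circles), coding promoter peaks (blue squares) and other peaks over 5000 bp from coding TSSs (grey diamonds). Among CpG-poor peaks RUNX was in 15.3% of lincRNA promoters, near the 13.2% of coding promoters and under the 22.3% of other far peaks.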

How the data were processed

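DNase-seq peaks and hotspots of 2 thymus replicates were used as deposited by the authors on mm10, where each library has its own lists and none is pooled, per the files' accompanying text. Neither labels nor files name the aligner, callers, thresholds or read totals. The authors deposited a score per peak, of unstated meaning, whole in every peak though sometimes written with a decimal point. The highest score was 150, and whether this is a cap that narrows differences at the top was not tested. Hotspots were deposited with a q-value as −log10, at most 100.

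Start sites came from GENCODE M21 with 21853 protein-coding genes and 54361 coding TSSs, and sequence and synonyms of lincRNA names from RefSeq GRCm38. No peak or hotspot lay beyond the end of a main chromosome of that build. Overlap between replicates was at least 1 bp, and the replicate 2 score is that of the overlapping peak with the highest score. This choice mattered for the 78 members that overlapped more than 1 replicate 2 peak. Positions count from 1. Peaks on sex chromosomes were left out of the members. The occurrences of the central 32 bases of each peak were counted exactly, on both strands, over the 65 chromosomes and scaffolds of the reference strain.

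The named genes are the 20 strongest and 5 weakest members, the 5 with the largest rank difference between replicates, genes with 3 or more member peaks, the known lincRNA lists, the 10 strongest members beside T cell genes and the peaks nearest each distance limit. Members, lists and motifs were chosen with earlier results of these data known. A few further peaks beside Cd8a, Cd8b1, Bcl11b, Satb1, Hes1 and Egr2 were chosen after their values were seen. With 1 group of 2 samples no p-value was computed. The 12 alternatives set at the start changed the overlap, peak strength, distance limits, gene types, peaks per gene, sequence window, hotspots for peaks and replicates used, and 3 more were added after the data had been seen. Overlap, nearest start site and copy counting were tested on simulated data with known answers, with all planted answers recovered. The tools were Python 3.11.15, pysam 0.24.0, pandas 2.3.3, numpy 2.4.6, scipy 1.17.1 and matplotlib 3.10.9.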

Additional observations from a re-analysis of the deposited data

Results flagged for a closer look

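Chromosome X was outside the members. The same rule applied there gave 21 lincRNA promoter peaks at 9 genes, which are listed here because no comparison above used them. Their scores in replicate 1 ran from 19 to 126 with a median of 74. They included the genes of the X inactivation centre, where Ftx had the strongest peak at 126 in replicate 1 and 127 in replicate 2, Jpx had 104 in both, and Xist, the RNA that coats the inactive X, had 74 and 77. The thymus was pooled over males and females, so these values cannot be assigned to either.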

How the results depend on the processing

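The counts of peaks and genes, the gene share, median scores, hotspot widths, rank difference, CpG count and motif shares were recomputed under 12 alternatives set at the start and 3 added after the data had been seen, not each under all of them, and the rank difference kept its sign. The other values of the report were not recomputed. The number of lincRNA promoter peaks was 795 with the stronger 50% of peaks, 2119 with a window of 2500 bp and 1976 with other non-coding gene types added, against 1226, and with those types 1351 genes had a peak, against 852. The share of lincRNA genes with a promoter peak, 21.3% in the report, was 14.3% with the stronger 50%, 16.8% at 500 bp and 30.3% at 2500 bp. Median scores in replicates 1 and 2 were 83 and 80 with the stronger 50%, 74 and 66 with the strongest peak per gene, and 52 (without replicate 2) and 47 (without replicate 1) where sharing was not required, and hotspot widths were 514 and 690 bp with the stronger 50%. The rank difference to other far peaks, 9.33 in the report, was 10.8 without replicate 2 and 12.4 without replicate 1, 6.07 with the stronger 50%, 6.02 at 2500 bp and 15.2 with the strongest peak per gene. The median CpG count was 4 with the stronger 50% and at 500 bp, and 6 when counted in 300 bp. Of 26 recomputed counts 4 moved by over 1.5 times, and of 75 other values, motif shares aside, 18 moved by more than the replicate spread. Of 180 motif shares 75 moved by more than that spread and 1 by over 1.5 times, NRF1 at 0.629% with the stronger 50%, against 0.408%. Leaving out peaks with recurring central bases, a setting chosen after seeing the data, left 1166 peaks and 839 genes. As such peaks were 4.89% of members, these counts could not have moved by over 1.5 times. Among the motif shares that moved beyond the replicate spread in that setting was NFY, at 6.35%, against 7.01%. The cause of these changes was not tested, beyond the number of peaks or bases that each setting admits. No paired analysis was possible because there was 1 group. Unknown depth limits any statement on lincRNA genes without a peak. Whether the score is capped is not stated, which limits any ranking at the top.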
